A study of Mus musculus with 26 samples.

Results

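Clones A3 and A5 are 2 immortalized adipose cell lines from the mouse inguinal fat depot, the fat pad under the skin of the groin. They are 2 of the 26 clonal lines of the series. They were taken by clone name and set against the other 21 inguinal clones, with the 3 interscapular clones BAT1, BAT6 and BAT8 beside them. The pair was chosen because measured values on these same arrays, above all of Plp2 and Nptx1, set it apart from the other inguinal clones. The contrast of A3 and A5 with the 21 is therefore a description and carries no test.

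Each clone was profiled on 1 Affymetrix mouse whole-genome expression array, which reads the RNA of a gene through sets of short probes. All 26 lines came from 129SVE mice of 1 supplier, were fully differentiated into fat cells, and were exposed for 4 h to forskolin, a plant compound that activates adenylyl cyclase and so raises cyclic AMP. For the forskolin concentration the sources disagree, with 10 micromolar given for the series and 10 millimolar for the single samples. Every line is a single clone grown from cells of a depot, no untreated culture is among the 26 arrays, and no clone has a second array, so the spread of a clone over repeated cultures was not measured. Neither a beige or white class of the inguinal clones nor the sex of the mice is given by the labels. On the log2 scale explained below, the Y-linked genes Eif2s3y, Kdm5d and Uty stood at 6.97 or more in all 26 arrays and Xist was dim (5.81 to 55.9 intensity units).

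The inguinal pad holds white fat cells, which store lipid, and beige fat cells, which can switch on heat production. The interscapular pad between the shoulder blades holds brown fat cells, whose heat comes from the mitochondrial uncoupling protein Ucp1. Fat pads also keep a positional record of where in the body they arose, carried by Hox genes and other patterning factors.

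Values are log2(intensity + 16), with 1 probe set per gene, the one with the highest mean over the 26 arrays. Genes that exceeded the array median on 2 or more of the arrays were used, 13095 in number. The array medians lay between 5.82 and 5.95 on this scale, so a value near or below 6 is close to background and a difference from it is approximate. A gene is called set apart here when A3 and A5 both lay above the highest, or both below the lowest, of the 21 and the means differed by at least 1 log2 unit. In whole-culture RNA, fewer cells of a type and less RNA per cell cannot be told apart.

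Both clones carried the genes of differentiated fat cells. Adipoq, the hormone adiponectin, was 12.88 in A3 and 12.30 in A5, and the 21 ran from 9.19 to 14.13 with a median of 13.51. Fabp4, the fatty acid carrier of fat cells, was 14.09 in A3 and 13.54 in A5, with a median of 14.21 in the 21. Pparg, the master regulator of fat cell formation, was 9.93 in A3 and 10.57 in A5, inside the range of the 21 (7.39 to 11.13). None of the 23 measured general adipocyte genes was set apart. Their list mean was 9.65 in A3 and 9.49 in A5, and 8.20 to 11.19 in the 21 with a median of 10.44. Of markers of other cell types, the endothelial, skeletal muscle, smooth muscle, and mesothelial and epithelial lists had no member set apart in either direction, and neither had the 8 measured macrophage and leukocyte genes (6.97 in A3 and 7.15 in A5, against 6.36 to 7.24 in the 21). Endothelial genes averaged 6.26 in A3 and 6.46 in A5, and A5 lay just above the 21, whose list means ran from 5.67 to 6.38. Of the 8 measured genes of cartilage, bone and tendon, Alpl was set apart upward (0.672% of all genes). Their list mean was 8.09 in A3 and 7.34 in A5, and 6.87 to 7.77 in the 21, so A3 lay above the range. The part of these cells in the results below was not tested. Of the 11 Schwann and neural genes, 1 was set apart upward, Nptx1 itself. The myelin gene Mbp lay below all 21 in both clones (7.42 in A3 and 7.551 in A5, against 7.552 to 9.25). Over all genes, 0.672% were set apart upward and 1.96% lay below all 21 in both clones.

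In all, 88 genes were set apart upward (0.672% of 13095) and 121 downward (0.924%). At these shares, a short gene list with no member set apart is no departure from all genes. Plp2 and Grb10 stood farthest out. The values just inside the limit of 1 log2 unit were -1.003 for Ppara and 1.01 for Ggh, and those just outside were -0.997 for Wbp4 and -0.99 for Tmtc4. The median difference over all genes kept was 0.02.

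Plp2, which encodes a proteolipid of the endoplasmic reticulum membrane, was 10.22 in A3 and 11.45 in A5. It was 10.30, 10.79 and 11.35 in BAT1, BAT6 and BAT8, and the 21 ran from 5.43 to 7.90 with a median of 6.04. In intensity units these were 1176 and 2787 in the pair, 1247 to 2597 in the interscapular clones, and at most 222.4 in the 21 (clone X7). The pair lay at about the interscapular level, and no other inguinal clone came near it. Nptx1, a secreted pentraxin of synapses, was less clear. It was 8.12 in A3 and 8.80 in A5, 8.23 to 10.15 in the interscapular clones, and 4.61 to 7.94 in the 21 with a median of 5.90, so A3 exceeded the highest other inguinal clone by only 0.19. A dimmer probe set of Nptx1 put both clones inside the range of the 21 (6.67 in A3 and 6.56 in A5, against 5.72 to 7.20).

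Some other transcripts that stood high in the pair were also high in interscapular clones, some were not, and some lay between. Ebf3, a transcription factor counted among brown fat markers, was 8.20 in A3 and 7.44 in A5, 6.86 to 7.73 in the interscapular clones, and at most 5.16 in the 21. Both of its other probe sets were also above all 21. Aldoc, the brain-type glycolytic aldolase, was 6.27 in A3 and 8.20 in A5, 7.33 to 8.09 in the interscapular clones, and at most 5.45 in the 21. A dimmer probe set of Aldoc, at 5.03 in A3 and 4.45 in A5, was inside the range of the 21. Prrg3, a membrane protein with a Gla domain, was 7.53 in A3 and 9.07 in A5, 7.79 to 8.55 in the interscapular clones, and at most 6.52 in the 21. Plod1, which hydroxylates lysines of collagen, was 10.81 in A3 and 11.04 in A5, 9.77 to 10.69 in the interscapular clones, and 7.76 to 9.79 in the 21. BAT1 was thus inside the inguinal range in Plod1. Abhd11os lay between, at 8.21 in A3 and 8.11 in A5, 5.99 to 7.27 in the interscapular clones, and at most 6.14 in the 21.

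A second set was high in A3 and A5 alone. Naalad2, a dipeptidase of the glutamate carboxypeptidase family, was 10.12 in A3 and 10.60 in A5, 5.77 to 7.72 in the interscapular clones, and 5.29 to 7.90 in the 21. Gpnmb, a membrane glycoprotein best known from macrophages and pigment cells, was 11.35 in A3 and 11.15 in A5, 8.91 to 9.19 in the interscapular clones, and 7.12 to 9.46 in the 21. Cxcl3, a chemokine that draws neutrophils, was 11.90 in A3 and 11.33 in A5, 6.76 to 8.48 in the interscapular clones, and 6.51 to 10.16 in the 21. In these 3 genes every interscapular clone lay inside the range of the 21. Art3, of the ADP-ribosyltransferase family, Foxs1, a forkhead factor, and Arsb, a lysosomal sulfatase, showed the same arrangement, with A3 and A5 above, and no interscapular clone above, the 21. The other probe set of Art3, however, put both clones inside the range (5.84 in A3 and 5.63 in A5, against 4.43 to 5.91). A dimmer probe set of Gpnmb put A5 inside it (6.51 in A3 and 6.06 in A5, against at most 6.23).

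**Figure D1:**
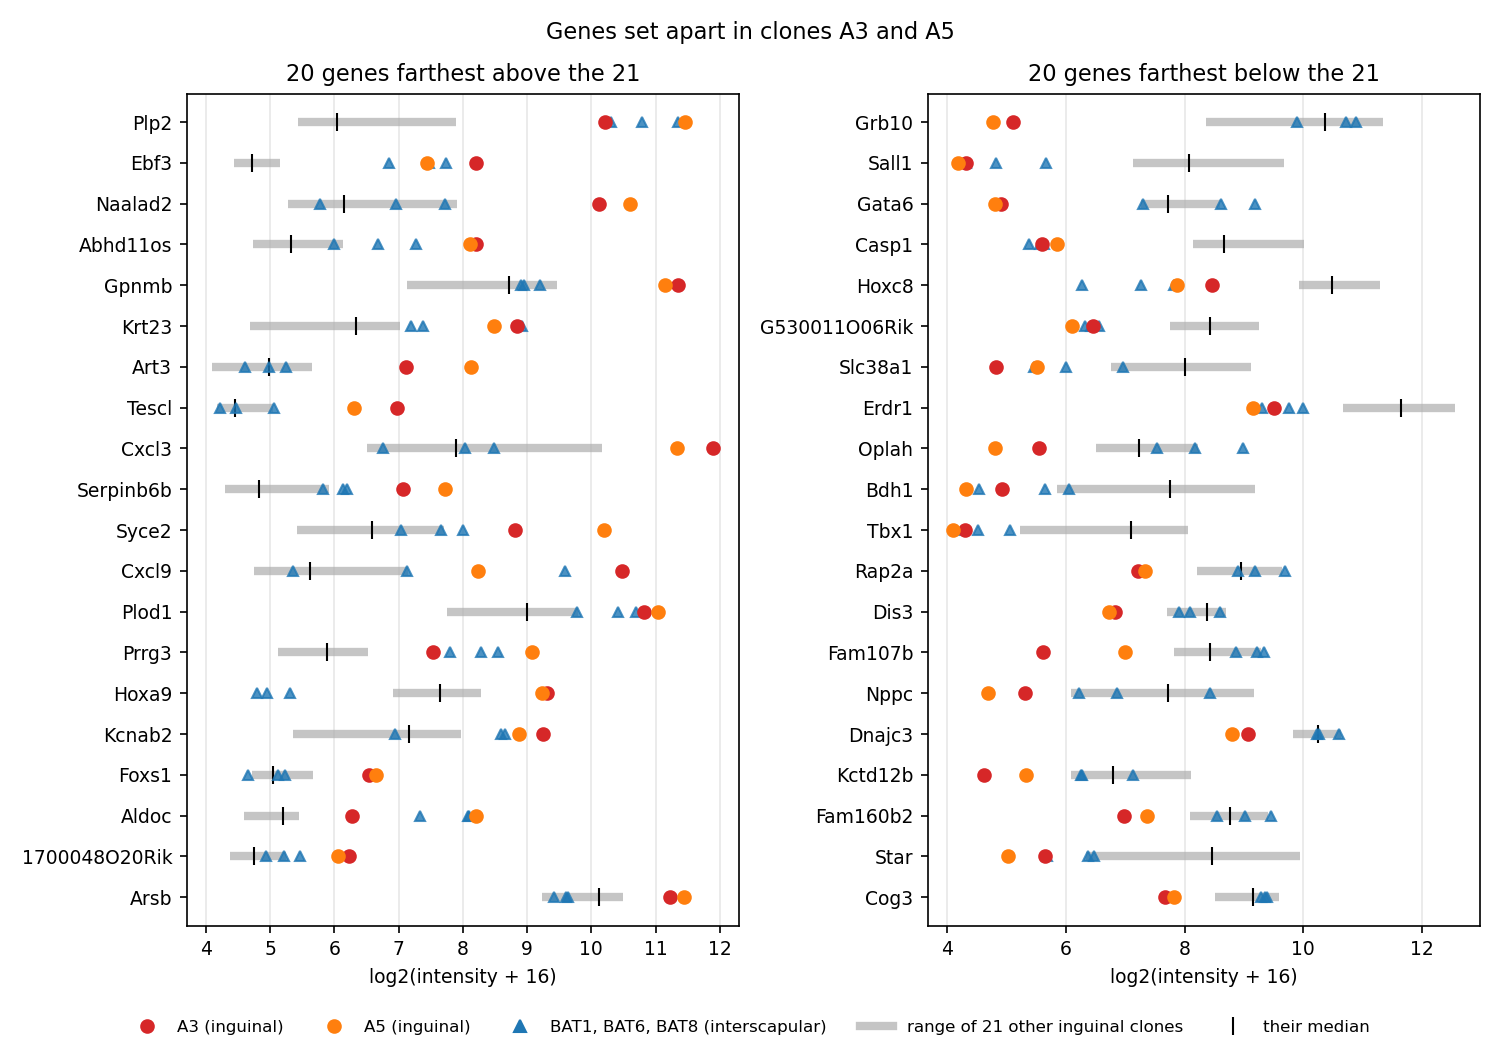
Values of the 20 genes farthest above and the 20 farthest below the other 21 inguinal clones, ordered by the gap. The x axis is log2(intensity + 16). Circles are A3 and A5, triangles the 3 interscapular clones, grey bars the range and ticks the median of the 21 (1 array per clone). Plp2 and Ebf3 lie with the interscapular clones, while Naalad2, Gpnmb and Grb10 differ from both.

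Grb10, an imprinted adaptor that restrains insulin and IGF receptor signalling, was 5.11 in A3 and 4.77 in A5. It was 9.89 to 10.89 in the interscapular clones, and 8.36 to 11.34 in the 21 with a median of 10.37. The pair was thus at background where all other 24 clones expressed the gene (18.5 intensity units in A3 and 11.4 in A5, and at least 312 in every other clone). Of the 2 dimmer probe sets of Grb10, the one differed by -1.03, with both clones below all 21, and the other by -0.48, with both inside the range. Grb10 was the only one of 22 measured imprinted genes to be set apart (0.924% of all genes downward).

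Gata6, a zinc finger factor of mesodermal and endodermal tissue, followed the same pattern. It was 4.90 in A3 and 4.81 in A5, 7.31 to 9.19 in the interscapular clones, and 7.27 to 8.60 in the 21. Oplah, an enzyme of glutathione turnover that belongs to the brown list, was 5.55 in A3 and 4.80 in A5, 7.54 to 8.98 in the interscapular clones, and 6.51 to 8.22 in the 21. In both genes A3 and A5 lay below each of the other 24 clones.

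A different group was low in the pair and in the interscapular clones alike. Sall1, a zinc finger factor of limb and kidney development, was 4.31 in A3 and 4.18 in A5, 4.32 to 5.66 in the interscapular clones, and 7.14 to 9.67 in the 21. Casp1, the protease of the inflammasome, was 5.60 in A3 and 5.85 in A5, 5.38 to 5.64 in the interscapular clones, and 8.14 to 10.01 in the 21. Tbx1, a T-box factor used as a beige marker, was 4.30 in A3 and 4.10 in A5, 4.14 to 5.06 in the interscapular clones, and 5.23 to 8.06 in the 21. Bdh1, a ketone body dehydrogenase, was 4.93 in A3 and 4.31 in A5, 4.54 to 6.04 in the interscapular clones, and 5.86 to 9.18 in the 21. Star, which carries cholesterol into mitochondria, was 5.65 in A3 and 5.02 in A5, 5.68 to 6.47 in the interscapular clones, and 6.34 to 9.95 in the 21. In Bdh1 and Star the interscapular clones partly overlapped the 21, and in Sall1, Casp1 and Tbx1 they did not. The lowest of these values sit at background, so the sizes of the gaps are approximate.

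Where a gene had further probe sets, most moved the same way. Among the 20 upward genes, 12 of 13 other probe sets had a difference of the same sign, 4 of them by at least 1 log2 unit. Among the 20 downward genes, 17 of 18 did, 9 of them by at least 1. Some of these probe sets, as in Aldoc and Art3, put both clones inside the range of the 21. The genes were picked as the farthest out on the same arrays, so a shared sign is no independent check. Over the 21 other inguinal clones, the median pairwise Pearson correlation was 0.02 among the 20 upward genes (-0.51 to 0.78) and 0.06 among the 20 downward genes (-0.62 to 0.75), with many of the upward genes close to background there.

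The profiles most like Plp2 over all 26 arrays, as a description, were those of Aldoc (Pearson r = 0.93), Ebf3 (0.93) and Prrg3 (0.91), and those most opposed were Casp1 (-0.94), Hoxc8 (-0.94) and Gm45351 (-0.92). For Nptx1 they were Plp2 (0.85), Aldoc (0.84) and Ebf3 (0.80) on the one side, and Hoxc8 (-0.87), Casp1 (-0.81) and Mgst2 (-0.78) on the other. The arrays of A3, A5 and the interscapular clones lie together at 1 end of each of these relations, so the coefficients rest largely on those 5 arrays.

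Some Hox genes of the pair had inguinal levels and others did not. Of 23 measured, Hoxa9 and Hoxb9 were set apart upward and Hoxc8 downward (0.672% and 0.924% of all genes). Hoxa9, a gene of the lumbar and limb region, was 9.30 in A3 and 9.23 in A5, 4.79 to 5.31 in the interscapular clones, and 6.91 to 8.28 in the 21, so the pair lay on the far side of the inguinal clones from the interscapular ones. Hoxb9 was 7.33 in A3 and 7.70 in A5, 5.15 to 6.39 in the interscapular clones, and 5.21 to 7.03 in the 21. Hoxb6 was above all 21 in both clones by less than the limit (8.31 in A3 and 8.19 in A5, against at most 7.76).

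Hoxc8 was 8.46 in A3 and 7.87 in A5, 6.28 to 7.83 in the interscapular clones, and 9.93 to 11.30 in the 21. Both clones lay in the gap between the depots. Its neighbours did not follow. Hoxc9 was 8.48 in A3 and 8.52 in A5, 5.41 to 5.84 in the interscapular clones, and 7.54 to 9.43 in the 21. Hoxc10, which separated the depots without overlap, was 9.40 in A3 and 10.33 in A5, 4.37 to 4.47 in the interscapular clones, and 9.55 to 10.74 in the 21. A5 was inside the inguinal range and A3 just below it, and both stood far above the interscapular clones.

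Plac8 and Car9 also placed the pair with the inguinal clones. Plac8 was 14.18 in A3 and 14.14 in A5, 9.18 to 10.37 in the interscapular clones, and 13.88 to 14.30 in the 21. Car9, a carbonic anhydrase induced by low oxygen, was 5.38 in A3 and 4.87 in A5, 9.89 to 10.24 in the interscapular clones, and 4.81 to 5.54 in the 21.

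Among other patterning factors, 2 of 27 measured were set apart upward and 4 downward (0.672% and 0.924% of all genes), with a median difference of -0.07. Foxc1, a forkhead factor of mesenchyme, was 9.15 in A3 and 8.33 in A5, against at most 8.26 in the 21. Nr2f1, a nuclear receptor, was 9.97 in A3 and 9.48 in A5, against at most 9.32. The downward ones were Gata6, Tbx1, Gata3 and Isl1. Isl1, a LIM homeobox factor, varied most widely among the 21 (4.73 to 10.35) and was at background in the pair (4.38 in A3 and 4.22 in A5).

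Marker lists of brown and beige fat cells stem from earlier work with these lines, so they give no independent evidence. Of 11 measured beige markers, 3 were set apart downward and none upward (background 0.924% and 0.672%). These were Tbx1, Hoxc8 and Tmem26, a membrane protein that was 6.39 in A3 and 6.76 in A5, 5.04 to 5.45 in the interscapular clones, and 7.07 to 9.51 in the 21. The median difference of the list was -1.18, against 0.02 over all genes. The list mean was 6.94 in A3 and 7.04 in A5, 6.43 to 6.90 in the interscapular clones, and 7.66 to 8.32 in the 21, without overlap between the pair and the 21. Klhl13 (6.22 in A3 and 6.28 in A5, against 6.27 to 9.23 in the 21) and Cd40 (6.42 and 7.33, against 6.68 to 8.81) were low in the pair without lying outside the range in both clones. Sp100, Shox2, Hoxc9 and Tnfrsf9 lay inside the range of the 21.

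The brown list did not move as a whole. Of 7 measured, Ebf3 was set apart upward and Oplah downward (0.672% and 0.924% of all genes). Fbxo31, a ubiquitin ligase subunit, was above all 21 by less than the limit (7.63 in A3 and 7.61 in A5, against at most 7.41). Over all genes, 3.02% were above all 21 in both clones. Hspb7, Mpzl2, Pdk4 and Eva1b lay inside the inguinal range. The list mean was 7.35 in A3 and 7.07 in A5, 8.77 to 9.12 in the interscapular clones, and 6.57 to 7.83 in the 21.

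None of 18 measured thermogenic genes was set apart. Ucp1 was 5.59 in A3 and 5.18 in A5, 6.19 to 7.01 in the interscapular clones, and 4.66 to 7.55 in the 21, with the pair below its array median in both arrays. Fgf21, a hormone that fat releases on cold exposure, was 5.60 in A3 and 7.03 in A5, 9.73 to 11.28 in the interscapular clones, and 4.51 to 6.81 in the 21. Here A5 alone was above the other inguinal clones.

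**Figure D2:**
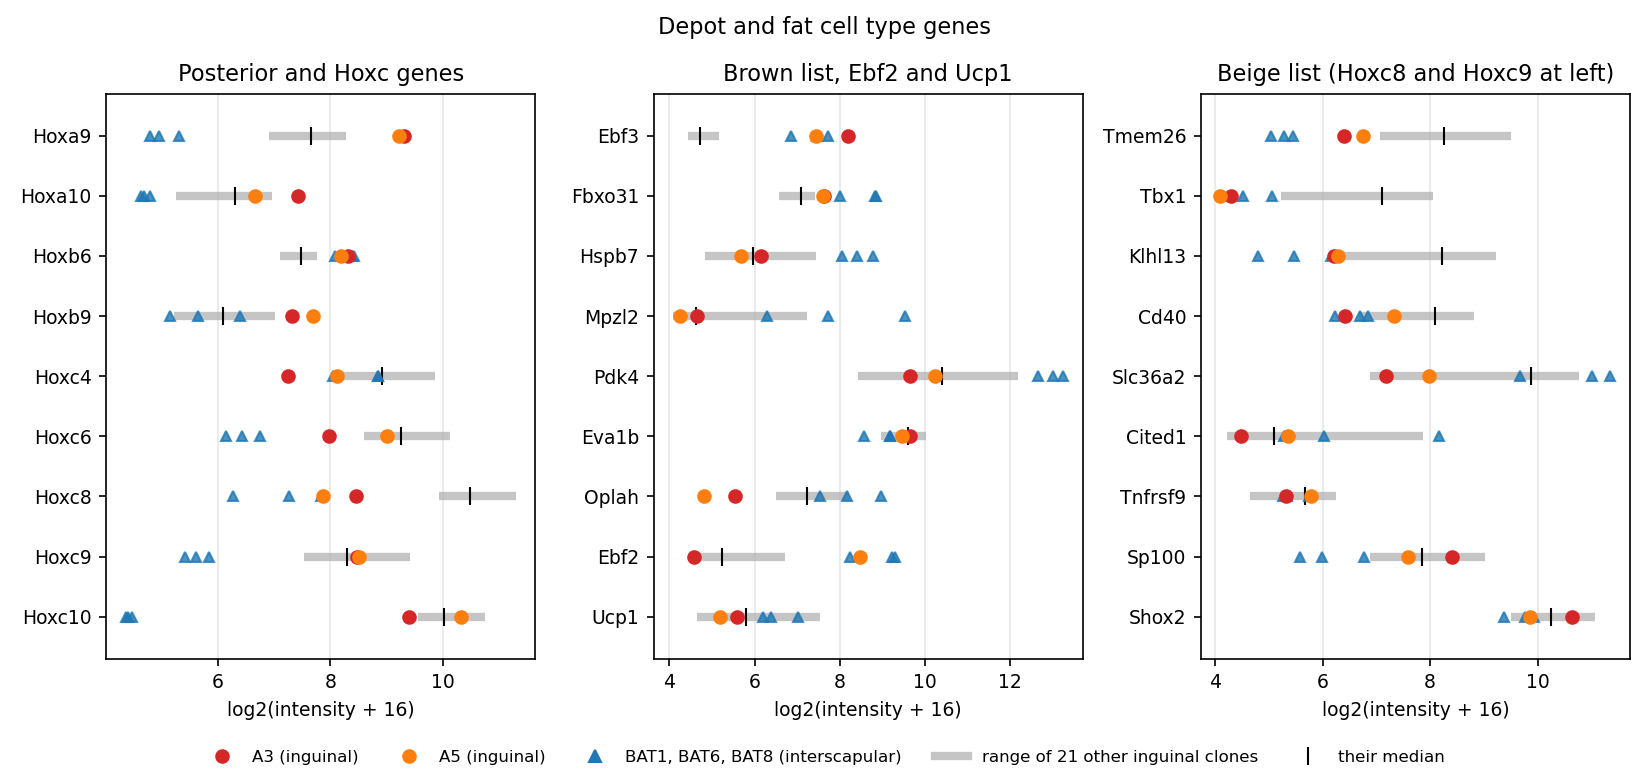
Depot and fat cell type genes in A3 and A5 (circles), the 3 interscapular clones (triangles) and the other 21 inguinal clones (grey range, tick at the median). The x axes are log2(intensity + 16). Hoxc8, Tbx1 and Tmem26 are low and Ebf3 is high in the pair, while Hoxc9, Hspb7 and Pdk4 lie inside the inguinal range.

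A limma fit of the 3 interscapular against the 21 other inguinal clones, which did not use A3 and A5, called 675 genes higher (5.15%) and 784 lower (5.99%) in interscapular clones at a Benjamini-Hochberg adjusted p of 0.05. With A3 and A5 counted as inguinal, the fit called 1321 genes in all, against 1459 without them, and 1273 were called both times. The interscapular clones shared some of the pair's leading differences and not others. Both contrasts use the same 21 clones, so values are set side by side and no overlap between them is counted. A3 and A5 were left out for their values of such genes, which narrows the inguinal spread, so the p-values here are those of the fit that counts them as inguinal. Plp2 differed by 4.64 ± 0.30 (SE) without the pair and by 4.24 with it (limma adjusted p = 0.00083), and by 4.67 between the pair and the 21. Ebf3 differed by 2.62 ± 0.15 without the pair and by 2.35 with it (limma adjusted p = 0.00321), and by 3.09 in the pair. Casp1 differed by -3.23 ± 0.25 and by -2.96 (limma adjusted p = 0.000559), and by -3.03 in the pair. Hoxc8 differed by -3.41 ± 0.27 and by -3.20 (limma adjusted p = 2.46e-05), and by -2.37 in the pair.

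Grb10 (0.70, limma adjusted p = 0.689) and Gata6 (0.84, limma adjusted p = 0.329) did not pass with the pair counted as inguinal, and were -5.33 and -2.93 in the pair. Hoxa9 differed by -2.69 ± 0.24 without the pair and by -2.83 with it (limma adjusted p = 1.36e-06), and by 1.55 in the pair, with opposite sign. Of 56 named genes called without the pair, 17 were not called with it, among them Plod1 (limma adjusted p = 0.09), Bdh1 (0.0528) and Star (0.059). Over all genes kept, 186 of 1459 calls were lost. Many genes were named because the pair stands apart in them, which widens the inguinal spread, so the 17 follow from that choice in part.

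Over whole profiles the pair was closer to the inguinal than to the interscapular arrays. The mean Pearson correlation with the other 21 inguinal arrays was 0.946 for A3 and 0.944 for A5, and that with the 3 interscapular arrays was 0.923 and 0.927. Among the 23 inguinal clones A3 was only rank 19 and A5 rank 15 in likeness to the interscapular arrays. As single arrays they were not the farthest from the inguinal clones either, because X3 (0.941), N13 (0.942) and I2 (0.942) had lower mean correlations. A3 and A5 were each other's nearest array by correlation (r = 0.961), though J6 for A3 (0.961) and E1 for A5 (0.961) followed closely and were the nearest by median absolute difference. A3 alone was at least 1 log2 unit above the next inguinal clone in 25 genes and below it in 9, and A5 in 20 and 6. The 21 had medians of 2 and 1 and reached 25 (I2) and 48 (N13).

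The 2 clones also differed from each other. Ebf2, the factor that marks brown fat precursors, was 4.58 in A3 and 8.47 in A5, 8.23 to 9.30 in the interscapular clones, and 4.65 to 6.71 in the 21, so A5 had the interscapular level and A3 none above background. Cox7a1, a muscle-type subunit of cytochrome oxidase, was 7.89 in A3 and 10.88 in A5, 8.39 to 10.25 in the interscapular clones, and 5.99 to 9.20 in the 21. Fmo1, a drug-oxidising monooxygenase, was 8.28 in A3 and 5.15 in A5, and at least 7.03 in the 21. These genes, with Adcy7, an adenylyl cyclase (5.32 in A3 and 7.97 in A5, against at most 6.28 in the 21), set A5 apart while A3 lay with the others or below them.

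Other genes set A3 apart from the inguinal clones and A5. Egfl6, a secreted matrix protein, was 10.87 in A3 and 4.91 in A5, against at most 8.62 in the 21. Gng4, a G protein gamma subunit, was 10.11 in A3 and 6.60 in A5, against at most 7.94. Igfbp2, an IGF-binding protein, was 8.83 in A3 and 5.92 in A5, against at most 6.69. Sprr1a, a small proline-rich protein of stressed epithelium, was 7.40 in A3 and 11.56 in A5, and at least 9.19 in the 21.

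Of 25 chemokine genes measured, 4 were set apart upward and none downward (0.672% and 0.924% of all genes), with a median difference of 0.18. These were Cxcl3, Cxcl9, Cxcl14 and Ccl5, and each was higher in A3 than in A5. Cxcl9, a chemokine induced by interferon gamma, was 10.48 in A3 and 8.23 in A5, 5.35 to 9.59 in the interscapular clones, and 4.74 to 7.15 in the 21. Cxcl14, a chemokine of epithelium, was 8.59 in A3 and 5.85 in A5, 4.84 to 5.42 in the interscapular clones, and 4.40 to 5.56 in the 21. The A5 value is close to background, and a dimmer probe set put A5 inside the range (7.39 in A3 and 5.19 in A5, against 4.46 to 5.69). Ccl5, which attracts T cells, was 11.47 in A3 and 10.30 in A5, with a highest value of 10.28 in the 21, so A5 exceeded it by 0.02. Of 37 interferon response genes, 1 was set apart upward (0.672% of all genes), Ifit2 (10.76 in A3 and 9.47 in A5, against at most 9.45). Their list mean was 10.77 in A3 and 9.80 in A5, and 9.18 to 10.55 in the 21 with a median of 9.82. A3 was thus above the range and A5 at its middle.

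Immediate targets of cyclic AMP, the messenger that forskolin raises, were on the low side. Of 28 measured, Nr4a3 and Dusp1 were set apart downward and none upward (0.924% and 0.672% of all genes), with a median difference of -0.56 against 0.02 over all genes. Nr4a3, an orphan nuclear receptor, was 8.68 in A3 and 8.53 in A5, 8.85 to 11.49 in the interscapular clones, and 8.79 to 11.53 in the 21. Dusp1, a phosphatase that turns off MAP kinases, was 11.57 in A3 and 11.84 in A5, 12.55 to 13.70 in the interscapular clones, and at least 11.91 in the 21. Fos was 8.48 in A3 and 7.29 in A5, and Egr1 was 9.54 in A3 and 9.64 in A5, with medians of 10.73 and 12.52 in the 21, but A3 in Fos and both clones in Egr1 lay inside the range. The list mean was 9.78 in A3 and 9.24 in A5, and 9.36 to 10.90 in the 21, so A5 lay below the range and A3 within it. With no untreated culture, a lower response to forskolin and a lower resting level cannot be told apart.

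The downward genes were not spread evenly over the genome. On chromosome 14, 33 genes were set apart downward and 5 upward, and 30 of the 33 lay in the distal 79 of the 436 kept genes of that chromosome. These 79 genes run from Rcbtb2, beside the retinoblastoma gene Rb1, to Fgf14. They are 0.603% of all genes kept and hold 24.8% of all downward genes. Gene order was taken from a RefSeq table used for names and order. The boundary was set from the values themselves, so the counts inside it are a description.

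In the 79 distal genes the median deviation from the median of the 21 was -1.10 in A3 and -1.05 in A5. It was -0.04 to 0.33 in the interscapular clones, and -0.48 (N13) to 0.25 in the 21. In the 357 genes before the boundary the medians were 0.04 in A3 and 0.18 in A5. Both clones were thus at about the same reduced level in the distal stretch, and no other clone was within 0.5 log2 units of them. As ratios, the medians were 0.466 in A3 and 0.484 in A5. Among the 42 distal genes with a mean of at least 8 in the 21, where background weighs less, they were 0.420 and 0.430.

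Both clones were below the median of the 21 in 68 of the 79 genes, and in all 42 of the brighter ones. Of the 79, 40 were below the lowest of the 21 in both clones, against 1.96% of all genes, and 0 were above the highest, against 3.02%. Among the brighter 42, 35 were below all 21. The longest unbroken run of neighbouring genes set apart anywhere on the scanned chromosomes was Ipo5, Farp1, Stk24, Dock9, Ubac2 and Tm9sf2, which lie in a row here.

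Whether the genes of this stretch share functions was not tested, and those named here are examples. Sucla2, a subunit of succinyl-CoA ligase in the TCA cycle, was 9.80 in A3 and 9.44 in A5, 10.81 to 11.94 in the interscapular clones, and 10.42 to 11.55 in the 21. Ipo5, a nuclear import receptor, was 9.22 in A3 and 9.09 in A5, 10.50 to 10.98 in the interscapular clones, and 9.70 to 11.22 in the 21. Abcc4, a membrane pump that exports cyclic nucleotides among other substrates, was 8.79 in A3 and 9.19 in A5, 9.66 to 10.91 in the interscapular clones, and 9.66 to 12.11 in the 21. All 3 genes separated the pair from each of the other 24 clones.

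Spry2, which dampens receptor tyrosine kinase signalling, was 8.50 in A3 and 7.26 in A5, 9.78 to 11.36 in the interscapular clones, and 8.95 to 11.79 in the 21. Dnajc3, a chaperone of the endoplasmic reticulum, was 9.07 in A3 and 8.80 in A5, 10.22 to 10.61 in the interscapular clones, and 9.83 to 10.63 in the 21. The exoribonuclease Dis3, the GTPase Rap2a and the Golgi tether Cog3, named above among the 20 farthest below, also lie in this stretch. Rb1 itself, the retinoblastoma tumour suppressor, was 7.25 in A3 and 7.82 in A5, 9.32 to 9.99 in the interscapular clones, and 7.78 to 9.64 in the 21, so A5 just overlapped the lowest other clone.

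Some distal genes were not low, or less so. Rgcc, a regulator of the cell cycle induced by complement, was 9.69 in A3 and 8.44 in A5, 12.20 to 12.95 in the interscapular clones, and 4.70 to 9.43 in the 21. Tpt1, an abundant translationally controlled protein, was 14.04 in A3 and 14.26 in A5, and 14.08 to 14.47 in the 21, where the brightest probe sets of the array lie. Itm2b, a membrane protein, was 13.19 in A3 and 13.22 in A5, and 12.86 to 14.22 in the 21. In Itm2b both clones were inside the range, though below the median of 13.83.

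The place of the step was nearly the same in both clones. A single step that best divided the chromosome fell between Hr and Nudt18 in A3 and, 7 genes further on, between Fndc3a and Rcbtb2 in A5. The short stretch between the steps was mixed. Fam160b2 (6.97 in A3 and 7.36 in A5, against at least 8.09 in the 21) and Xpo7 (8.17 and 8.35, against at least 8.89) were below all 21, while Dmtn, Gfra2 and Fndc3a were not. The step was -1.13 in A3 and -1.22 in A5, and the best single step on this chromosome was between -0.30 and 0.28 in the 21. On any chromosome, the largest step in the 21 was 0.59 (clone X3, chromosome 1).

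**Figure D3:**
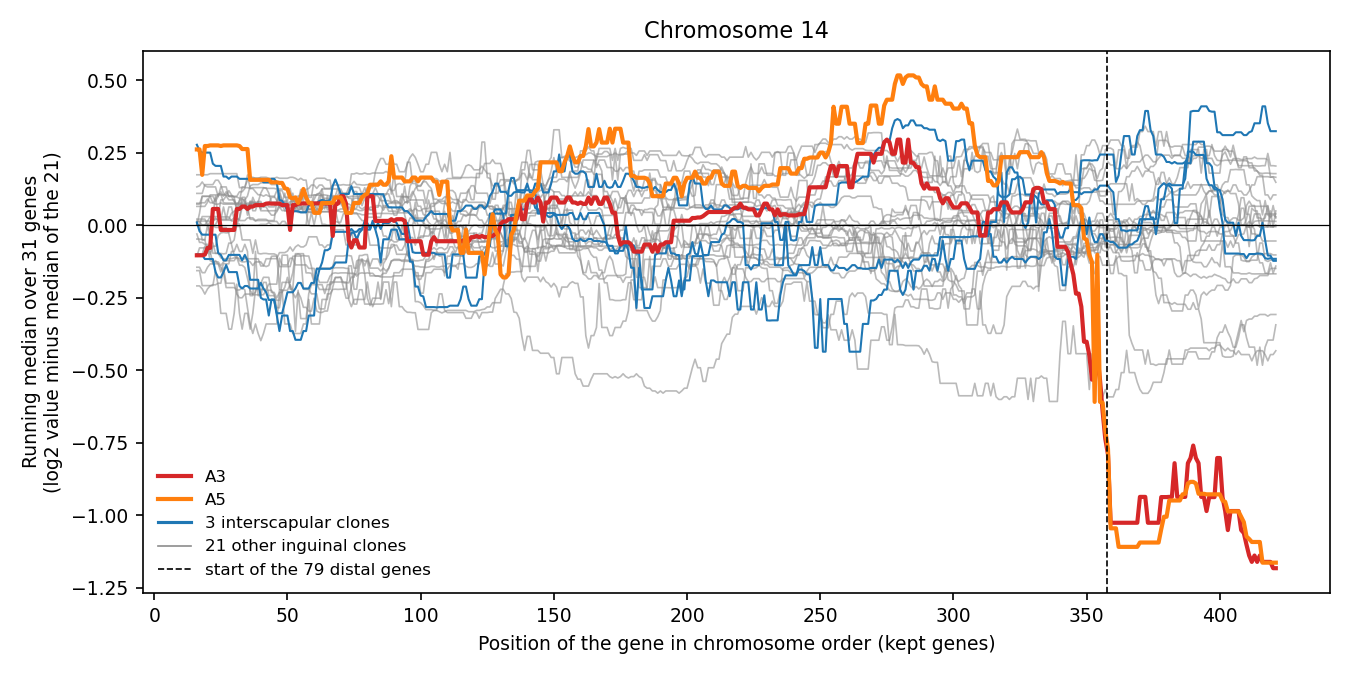
Running median over 31 neighbouring genes along chromosome 14, as log2 deviation from the median of the 21 other inguinal clones. The x axis is the order of the 436 kept genes and the dashed line marks the start of the 79 distal genes. A3 and A5 drop together to about -1 at that line, and the interscapular and other inguinal clones do not, although N13 is low over much of the chromosome.

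**Figure D4:**
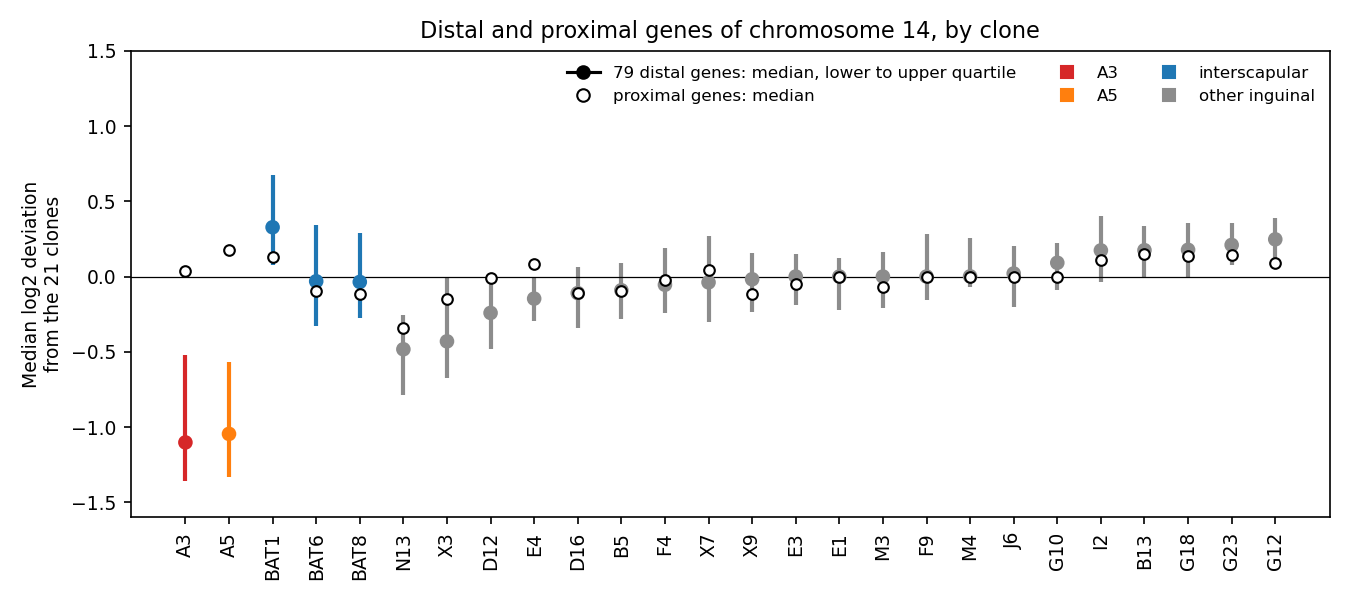
Median log2 deviation of the 79 distal genes (filled circle, bar from lower to upper quartile over genes) and of the 357 proximal genes (open circle) of chromosome 14 in each clone. A3 (-1.10) and A5 (-1.05) lie below all other clones in the distal genes only, and N13 (-0.48) is next.

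In windows of 31 neighbouring genes, both clones were at or below -0.5 in 68 of 406 windows on chromosome 14 and in 0 windows of any other chromosome. Windows at or above 0.5 in both clones were found on 0 chromosomes. Low windows also occurred in other single clones. Over all chromosomes, 108 of 12459 windows were at or below -0.5 in A3 and 94 in A5. There were 18 to 36 in the interscapular clones. N13 had 155 and X3 184 among the 21, most of which had 0. X9 had 47, all on chromosome 4, with its lowest window at Prdm16 (-0.87). Of those of N13, 119 lay on chromosome 14 itself, against 69 in A3 and 68 in A5 there. N13 was low on both sides of the boundary, with a median of -0.48 in the distal and -0.34 in the proximal genes, and its lowest window was -0.61 (A3 -1.18, A5 -1.16).

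Smaller steps at neighbouring genes were also found in both clones on some chromosomes. On 6 of 20 chromosomes the best single step ran the same way in A3 and A5 and fell within 10 genes, namely 4, 8, 9, 11, 13 and 14. Both clones are read against the same 21, and this comparison was chosen after the steps had been seen. How often other pairs of clones have steps this close was not counted, so whether 6 of 20 is unusual is not known. On chromosome 11 the step fell between Itga3 and Dlx4 in A3 and, 3 genes apart, between Col1a1 and Samd14 in A5. The distal genes were higher than the proximal ones there by 0.42 in A3 and 0.50 in A5. At that boundary the interscapular clones had -0.12 to 0.19 and the 21 had -0.09 to 0.16.

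On chromosome 8 the proximal 342 genes were low, with a difference between the sides of 0.41 in A3 and 0.30 in A5. The interscapular clones had 0.24 to 0.29 there, and the 21 had -0.15 to 0.17. On chromosome 4 the difference was 0.41 in A3 and 0.32 in A5, but clone D16 of the 21 reached 0.42. On chromosome 13 it was 0.23 in A3 and 0.11 in A5, against at most 0.12, so A5 lay within the 21. On chromosome 9 it was -0.29 in A3 and -0.44 in A5, with -0.27 as the lowest interscapular value (BAT6) and -0.27 as the lowest of the 21, and only 27 genes lay before the boundary. Apart from chromosome 14, these steps were at most 0.42 log2 units in size in A3.

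The 2 clones also differed in their windows past 0.5, in part on chromosomes 8, 11 and 13, where their steps fell within 10 genes. A3 had 49 windows at or above 0.5 on chromosome 13, with the highest at Trim23 (0.59), and 39 at or below -0.5 on chromosome 8, with the lowest at Mfhas1 (-0.68). A5 had 0 and 2 such windows on those chromosomes, with a highest of 0.28 on chromosome 13 and a lowest of -0.55 on chromosome 8. A5 had 19 low windows (lowest -0.60 at Car10) and 8 high windows on chromosome 11, and A3 had 0 of either (lowest -0.33, highest 0.49). On chromosome 10 the median deviation of all genes differed in sign, with 0.15 in A3 and -0.25 in A5, and -0.17 to 0.10 in the 21. The median deviation of all genes of the X chromosome was 0.10 in A3 and 0.38 in A5, and -0.12 to 0.27 in the 21.

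**Figure D5:**
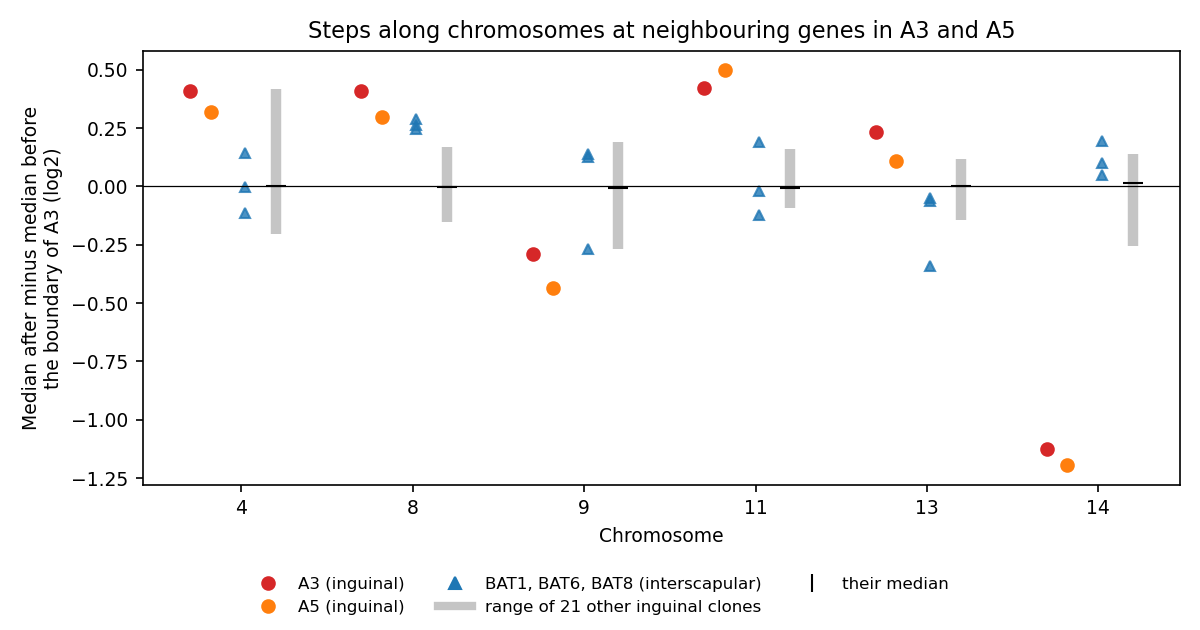
Difference between the median deviation after and before the boundary found in A3, on the 6 chromosomes where the steps of A3 and A5 fell within 10 genes (y axis in log2 units). Circles are A3 and A5, triangles the 3 interscapular clones, grey bars the range and dashes the median of the 21. Both clones lie outside all others on chromosomes 8, 9, 11 and 14, though only narrowly for A5 on 8 and for A3 on 9. D16 reaches the pair on chromosome 4.

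No DNA was measured in these files, and the cause of the steps was not tested. The arrays of A3 and A5 differed from each other in chip lot, scanner, fluidics station and scan session, as read from the experiment files, so they share none of these batches. The distal chromosome 14 median of the pair was -1.03 against all 21. Against the other inguinal arrays of each clone's own scanner (10 for A3 and 11 for A5) it was also -1.03. Within the own chip lot it was -0.78 and within the own scan session -0.83, and there A3 could be set against 1 array only, X3, whose own distal median was -0.43.

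For array quality, 4 measures were compared by a two-sided exact permutation test over the 253 choices of 2 of 23 arrays, whose smallest possible p is 0.00395. The actin 3' signal over its 5' signal, a measure of RNA quality given in log2 units, was 0.58 in A3 and 0.99 in A5, and 0.24 to 0.97 in the 21 (exact permutation p = 0.146, 0.585 after Benjamini-Hochberg adjustment), so A5 had the highest value of the inguinal arrays. The array median (exact permutation p = 0.838), the Gapdh ratio (0.498) and the number of values of 1 or less (0.466) did not pass either.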

How the data were processed

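The deposited series table holds 1 linear intensity per probe set and array (Affymetrix mouse 430 2.0, 26 arrays). The sources used here do not give the authors' method of summarising and scaling the probes. No columns were left unmapped (0). From the deposited intensity, log2(intensity + 16) was taken without rescaling the arrays, which understates differences of dim genes. The table lists 45101 probe sets, with 64 controls among them; 34958 had 1 gene symbol, 932 several and 9147 none; those with several or none were left out of gene counts. Symbols were updated through a RefSeq table (34754 matched, GRCm38.p6), used for names, chromosomes and gene order, giving 18194 named genes. The deposited experiment files gave scanner, chip lot, station and session, where a session joins scan dates a few days apart. The filter required 2 arrays above the array median.

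The depot fit used limma 3.58.1 in R 4.3.3 (two-sided, Benjamini-Hochberg over 13095 genes, threshold 0.05). Chromosome steps minimised the absolute deviations from 1 median on each side, with at least 10 genes a side, and running medians used 31 genes. The counting and step scripts and the limma fit were tested on simulated data. Other work used Python 3.11.15, numpy 2.4.6, pandas 2.3.3, scipy 1.17.1 and matplotlib 3.10.9. The clones, gene lists and comparisons were chosen with earlier results of these data known. Named genes were the 20 farthest out each way among those set apart, the 6 each way of A3 alone and of A5 alone, list members set apart, a short list of markers, the 10 with the largest depot difference each way and the 3 each way most like Plp2 and Nptx1. Genes of distal chromosome 14, some list members that were not set apart and the genes at the steps were named after their values were seen. Alternatives covered the pseudocount, scaling, probe set rule, filter, limits, batches and left-out clones. The number of arrays limits the precision.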

Additional observations from a re-analysis of the deposited data

Results flagged for a closer look

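Probe sets without a single gene symbol in the annotation took no part in the counts of genes. Of 4308 of them that passed the same filter, 28 lay above all 21 other inguinal clones in both A3 and A5 with a difference of at least 1 log2 unit, and 27 lay below all 21. These shares were no higher than among the 13095 named genes (0.672% upward and 0.924% downward). They are listed because they lie outside the named genes, and they were not tested.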

How the results depend on the processing

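The counts of genes set apart, 88 upward and 121 downward, follow the limits that define them. With a difference of at least 2 log2 units they were 21 and 25, and with at least 0.5 they were 336 and 227. With 64 added before the log the upward count was 58. With 1 clone of the pair left out, the counts were 266 to 271 upward and 268 to 285 downward, by construction, since 1 array passes the range of 21 more easily than 2. The distal chromosome 14 median of -1.03 was -0.74 with the mean of all probe sets of a gene, -0.78 within the own chip lot, -0.83 within the own scan session, -1.05 and -1.03 with 1 clone of the pair left out, and -1.24 over the brighter genes, a setting added after the data were seen. The depot counts with 1 interscapular clone left out were 273 to 508 higher and 295 to 559 lower, the lowest without BAT6 (273 and 295) and then BAT8 (388 and 468). Over 62 named genes that were set apart and 13 settings, 0 of 799 differences reversed, 94 moved by more than the spread of the 21, and 41 genes were set apart in every setting. These genes were chosen for differences of at least 1 log2 unit on the same arrays, and the settings reuse those values. A reversal was therefore unlikely from the start, and its absence is no independent support. For 31 genes of the depot fit over 14 settings, 2 values lost and 1 gained the call. With A3 and A5 counted as inguinal, 17 of 56 calls were lost over all named genes, many named for values of the pair. Over all genes kept, 186 of 1459 were lost. Near background a fold is understated. No paired analysis was possible because the labels give the clones no shared replicate numbers across groups.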

Other observations

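Single members of other gene groups were also set apart in A3 and A5, while most groups held none. Twist1, a helix-loop-helix factor of mesenchymal cells, was 10.82 in A3 and 10.40 in A5, 9.15 to 9.89 in the interscapular clones, and 8.23 to 10.32 in the 21 other inguinal clones. Cd24a, a surface protein of fat cell progenitors, was 8.89 in A3 and 7.28 in A5, 7.48 to 10.77 in the interscapular clones, and 8.90 to 12.61 in the 21, so A3 only just lay outside. They were the 2 members set apart, 1 each way, among 22 preadipocyte and fibroblast genes (0.672% of all genes upward and 0.924% downward). Alpl, the alkaline phosphatase of bone-forming cells, was 10.02 in A3 and 9.19 in A5, 8.06 to 10.15 in the interscapular clones, and 5.78 to 8.64 in the 21. It was the 1 member set apart among 8 measured genes of cartilage, bone and tendon (0.672% of all genes upward).

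In metabolism, Ogdh, a subunit of the oxoglutarate dehydrogenase complex, was 8.67 in A3 and 8.57 in A5, 9.17 to 9.74 in the interscapular clones, and 8.99 to 10.28 in the 21. With Sucla2 of distal chromosome 14 it made 2 of 19 TCA cycle genes set apart downward (0.924% of all genes). Mthfd2, a mitochondrial folate enzyme controlled by ATF4, was 8.56 in A3 and 8.50 in A5, 9.44 to 9.78 in the interscapular clones, and 8.86 to 10.76 in the 21. A dimmer probe set of Mthfd2 put A3 inside the range and A5 below it (8.81 in A3 and 8.25 in A5, against 8.72 to 11.08). Of 27 genes of ATF4 and the unfolded protein response, 1 was set apart downward (0.924% of all genes), with a median difference of -0.34. Their list mean was 9.90 in A3 and 9.96 in A5, below the 21 (10.05 to 10.93) and the interscapular clones (10.61 to 10.68). Dhcr7, the last enzyme of cholesterol synthesis, was 5.82 in A3 and 5.11 in A5, 6.30 to 8.29 in the interscapular clones, and 5.83 to 8.70 in the 21. Mdm2, which targets p53 for degradation, was 11.15 in A3 and 11.19 in A5, 11.42 to 12.46 in the interscapular clones, and 11.22 to 13.23 in the 21. The pair thus lay only just below the 21 in Mdm2, and a dimmer probe set put both clones inside the range (9.11 in A3 and 8.62 in A5, against 7.64 to 11.40). Akap12, a scaffold of protein kinase A, was 10.83 in A3 and 10.997 in A5, 11.86 to 12.14 in the interscapular clones, and 11.31 to 12.96 in the 21. No member was set apart among 44 oxidative phosphorylation, 22 lipogenesis, 47 collagen and matrix, 35 cell cycle, 29 TGF-beta and BMP, and 24 Wnt genes. Over all genes, 0.672% were set apart upward and 0.924% downward.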
